A study of Homo sapiens with 28 samples.

Results

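The replication-dependent histone genes are the genes whose messages supply the histones packed onto newly made DNA. They were chosen by symbol, as every gene named H1-1 to H1-5, H2AC, H2BC, H3C or H4C with a number, and 64 of the 35488 genes in the deposited tables met this rule. They comprised 5 genes for linker histone H1, 16 for H2A, 17 for H2B, 13 for H3 and 13 for H4. By the GENCODE 29 annotation of GRCh38, 51 lay on chromosome 6 and 11 on chromosome 1, and the identifiers of H3C2 and H3C3 were not matched there. The RNA came from SK-N-MC, an Ewing sarcoma cell line, in which doxycycline switches on a short hairpin RNA. The groups were shFLI1, whose hairpin is directed at FLI1 and so at the EWS-FLI1 fusion message of this tumour, shCHD4#1 and shCHD4#2, directed at CHD4, the ATPase of the NuRD chromatin remodelling complex, and shScramble, the control hairpin. All 4 were given 100 ng/ml doxycycline for 24 h or 48 h, so the controls were exposed to the drug too, and each time had 3 shFLI1, 3 shCHD4#1, 3 shCHD4#2 and 5 shScramble libraries, 28 in all. One cell line with 1 hairpin for FLI1 is the whole of the model, and the labels call the libraries of a group biological replicates, so p-values measure the spread between these libraries.

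Histone messages of this family are made mainly in S phase, from clustered genes without introns, and most end in a conserved stem-loop instead of a poly(A) tail. The stem-loop binding protein SLBP and the U7 small nuclear RNA direct the cut that forms this end, and NPAT, a substrate of cyclin E with CDK2, switches the clusters on. When DNA synthesis stops, the messages are rapidly degraded through the same stem-loop. The libraries were made from total RNA with a stranded kit, so messages without a poly(A) tail were read.

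The stem-loop is shown because it is the part that sets these messages apart from other messages. The letters in capitals for H2AC18 were present in the listed transcripts of 15 genes of the family, and the wider histone stem-loop pattern, which lets 3 of these letters vary and so takes in the H4 forms, in 27, on the strand of the message. Over the whole annotation the counts were 20 genes (0.0341%) and 40 genes (0.0682%) of 58676. For 29 genes the listed model holds coding sequence only, so no stem-loop could be looked for there. The sequences below are from GENCODE 29 transcripts (GRCh38), 5′ to 3′ in DNA letters, with the stem-loop in capitals.
H2AC18, chr1:149842217-149842243, minus strand: caaaaGGCTCTTTTCAGAGCCacccac
H2BC5, chr6:26158582-26158608, plus strand: ccaaaGGCTCTTTTAAGAGCCacgcat
H2BC9, chr6:26252050-26252076, plus strand: ccaaaGGCTCTTTTCAGAGCCacttaa
H4C11, chr6:27824454-27824480, plus strand: taaaaGGCCCTTTTCAGGGCCacccta
H4C9, chr6:27139649-27139675, plus strand: aaaaaGGCCCTTTTTAGGGCCcctaag
Of the 27, 17 also held the poly(A) signal letters AATAAA downstream of the stem-loop in the same model.

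Promoters are shown for H2AC16, one of the genes lowest with shFLI1 at 48 h, for H4C9, which was higher there, and for H2AC1, H2BC1, H2BC14, H2BC3 and H4C4, which were higher with CHD4 hairpins. Each is the 100 bases before the start of the gene in RefSeq (GRCh38.p14), 5′ to 3′ on the strand of the gene, with motifs in capitals.
H2AC16, chr6:27865217-27865316, plus strand: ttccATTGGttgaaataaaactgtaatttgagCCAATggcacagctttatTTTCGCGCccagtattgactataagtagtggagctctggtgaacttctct
H4C9, chr6:27139182-27139281, plus strand: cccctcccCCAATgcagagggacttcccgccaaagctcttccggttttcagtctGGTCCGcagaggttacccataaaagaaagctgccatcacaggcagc
H2AC1, chr6:25726563-25726662, minus strand: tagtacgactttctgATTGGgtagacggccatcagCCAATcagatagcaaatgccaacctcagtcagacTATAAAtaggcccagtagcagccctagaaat
H2BC1, chr6:25726677-25726776, plus strand: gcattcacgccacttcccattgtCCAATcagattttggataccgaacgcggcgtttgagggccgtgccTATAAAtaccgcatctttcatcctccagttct
H2BC14, chr6:27814922-27815021, plus strand: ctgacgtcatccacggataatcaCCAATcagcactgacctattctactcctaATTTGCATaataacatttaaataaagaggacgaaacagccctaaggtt
H2BC3, chr6:26043714-26043813, minus strand: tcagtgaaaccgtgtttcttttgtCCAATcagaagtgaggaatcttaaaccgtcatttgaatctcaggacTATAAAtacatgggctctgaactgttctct
H4C4, chr6:26189113-26189212, minus strand: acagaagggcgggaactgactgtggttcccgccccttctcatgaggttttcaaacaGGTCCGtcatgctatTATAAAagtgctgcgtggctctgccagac
The motifs searched, on both strands, were the CCAAT box (CCAAT, or on the other strand ATTGG), the octamer ATTTGCAT, the TATA box TATAAA, the H4 core GGTCCG, the E2F letters TTTCGCGC and the GGAA repeat GGAAGGAA. Counted over 250 bases before to 50 after the start, CCAAT was in 50 of the 59 family promoters in the table (84.7%, against 39.7% of all 27305 promoters), and in all 15 of H2A, all 17 of H2B and all 11 of H3 but in 2 of 11 of H4. The octamer was in 26 of 59 (44.1%, against 2.19%), 14 of them H2B and 11 H2A. GGTCCG was in 10 of the 11 H4 promoters, against 13.4% of all promoters, TATAAA in 42 of 59 (71.2%, against 14%), TTTCGCGC in 12 of 59 (20.3%, against 0.630%), and GGAAGGAA in none of 59 (against 4.5%). Motifs overlapped each other in 3 family promoters, and these matches are letters in a window and were not tested for use. Close neighbours transcribed away from each other had gaps of 218 to 330 bases, so a window can reach into the neighbour's promoter. A match there, of the octamer or TTTCGCGC among others, can count for both genes of a pair. An H3C4 entry also repeats that of H2AC7, so the promoters counted are not independent.

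The libraries held 46102707 to 64775441 reads counted to genes, and the family took 0.416% to 1.46% of them. FLI1 reads were lower with shFLI1 (1856 ± 148 normalised read counts at 24 h and 1669 ± 141 at 48 h) than with shScramble (4153 ± 408 and 3783 ± 454), and CHD4 reads were lower with shCHD4#1 (2989.9 ± 239.5 and 3189 ± 267) and shCHD4#2 (3075 ± 351 and 2749.9 ± 44.1) than with shScramble (11550.1 ± 1236 and 11605 ± 1563; SD, n = 3 for each FLI1 or CHD4 hairpin group and n = 5 for each shScramble group). A normalised read count here is reads divided by 1 size factor per library, and means are given ± SD over these n throughout. By limma, FLI1 as well as CHD4 was called lower with shCHD4#2 at 48 h, and CHD4 was called higher with shFLI1 at 24 h. All 10 genes of an Ewing sarcoma marker list were above a mean of 10 (their sum was 28057 to 83212 in a library), and lists for blood, endothelium, epithelium and skeletal muscle summed to at most 2679. Of the 10 Ewing sarcoma genes, 9 were called lower at 48 h with shCHD4#2, 2 with shCHD4#1 and 10 with shFLI1. The shares of all genes called lower there were 20.3%, 15.5% and 31.7%.

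The libraries were of 2 kinds across the groups. Replicates 1 and 2 of shScramble, shCHD4#1 and shCHD4#2, 12 libraries called the first kind below, gave 0.313% to 0.388% of their reads to processed pseudogenes. The other 16, which include all 6 shFLI1 libraries, gave 0.223% to 0.283%. The family moved with this split. Its summed level in shScramble libraries was 415926 and 443264 in the first kind and 676523, 626218 and 789573 in the second at 24 h, and 423901 and 424209 against 714781, 640209 and 719743 at 48 h. The labels name no reason for the split, and its part in the results was tested only by the within-kind values and the fits with the kind as a term given beside them.

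**Figure D1:**
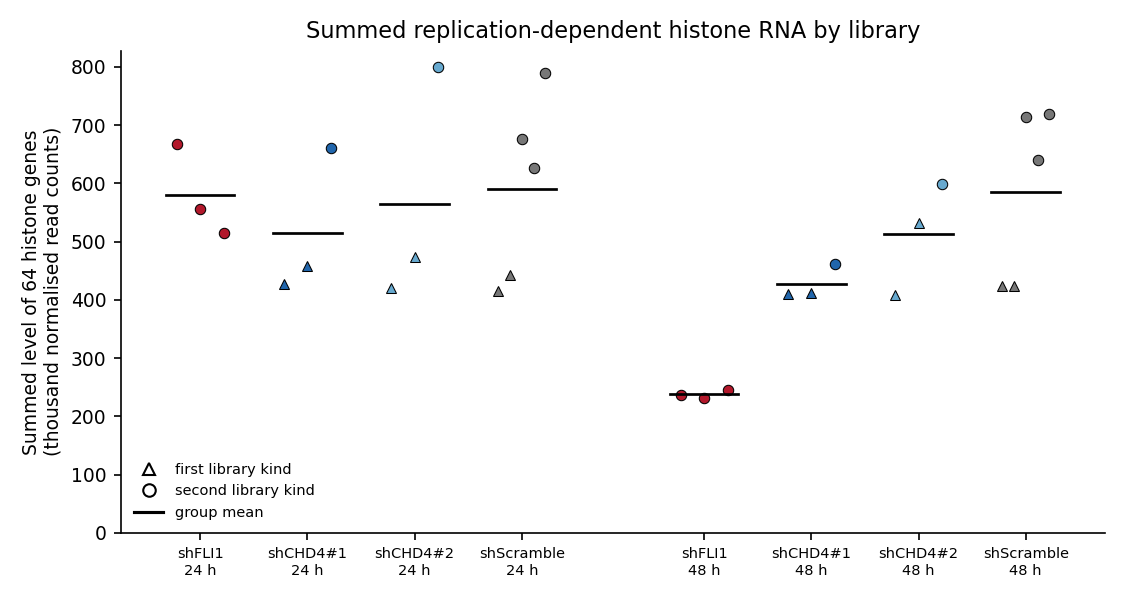
Summed level of the 64 histone genes in each of 28 libraries, in units of 1000 normalised read counts, by hairpin and time; triangles are the first library kind, circles the second, and lines the group means. The 3 shFLI1 libraries at 48 h lie between 232315 and 244400 normalised read counts, below every other library, and the shScramble libraries of the first kind lie below those of the second.

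Of the 64 genes, 57 had a mean of at least 10 normalised read counts over the 28 libraries and were tested, 4 of H1, 15 of H2A, 17 of H2B, 10 of H3 and 11 of H4. The 7 others, H1-1, H2AC15, H3C6, H3C8, H3C11, H4C7 and H4C13, had means of 0.406 to 7.29. H2AC1 and H2BC1 reached 10 only through the CHD4 hairpin groups, and 55 genes would have passed on shScramble alone. In shScramble libraries the highest levels per kilobase of exon were those of the linker histone genes H1-4 (60392 normalised read counts per kilobase) and H1-2 (56980.1). H4C12 (51526) and H4C11 (39953) led H4, H2BC17 (37249) and H2BC5 (29306) H2B, H2AC18 (35603) and H2AC19 (35052) H2A, and H3C12 (22614) and H3C7 (19247) H3. These ranks depend on the listed exon length, which is coding sequence only for some genes and longer for others. H4C5, with 1487 bases listed, had a shScramble mean of 18082 normalised read counts, against 16076 for H4C12 with 312. H3C2 (mean 21789) and H3C3 had no listed length and were not ranked. A total of 44 genes had a mean of at least 1000 normalised read counts and 13 had 10 to 1000. Reads of near-identical copies could be split between them: 11 of 62 genes shared at least 50% of their 50-base words with another member. All or nearly all words were shared between H2AC18 and H2AC19, between H3C14 and H3C15 and between H4C14 and H4C15. H4C12 shared 100% of its words with H4C11, and H4C11 81.2% of its words with H4C12. The values within each of these pairs are not independent.

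The first question was what loss of EWS-FLI1 message did to the family. At 24 h the answer depended on which shScramble libraries were used. Against all 5, 3 of 57 genes were called, all higher, and against the 3 second-kind ones alone, the kind of every shFLI1 library, 2 were called higher and 13 lower. H4C9, a histone H4 gene, was higher with shFLI1, at 27.9, 51.4 and 51.96 normalised read counts in the 3 shFLI1 libraries, against 0.927, 10.5, 16.2, 15.8 and 6.02 in the 5 shScramble libraries (log2 2.34 ± 0.59 (SE), limma adjusted p = 0.00473). The groups did not overlap. H2BC14, an H2B gene, had 179.9, 129.6 and 64.1 with shFLI1, against 59.3, 32.4, 54.7, 42.2 and 98.7 with shScramble (log2 1.08 ± 0.39 (SE), limma adjusted p = 0.034). H2BC3, another H2B gene, had 232, 211 and 121 with shFLI1, against 66.7, 48.6, 121, 89.6 and 165 with shScramble (log2 1.0 ± 0.37 (SE), limma adjusted p = 0.0388). In both H2B genes the lowest shFLI1 library lay inside the shScramble range. These were the 3 genes called against all shScramble libraries, where 46.7% of all 21025 tested genes were called (24.2% higher and 22.5% lower). The median log2 fold change was 0.03 over the 57 and 0.0038 over all genes. With second-kind libraries alone the 2 called higher were H1-3 and H4C9 and the median was -0.26, and a fit with the library kind as a term called 2 higher and 19 lower. The higher count was 1 without shScramble replicate 2 or 4 or without shFLI1 replicate 1 or 2. For the second-kind fit and the fit with the kind term, shares over all genes are not given. Their counts are therefore not read as particular to the family.

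By 48 h the family was lower as a whole with shFLI1. Its summed level was 235915, 232315 and 244400.0 normalised read counts with shFLI1, against 423901, 424209, 714781, 640209 and 719743 with shScramble, 40.6% of the shScramble mean (40.9% as a share of all reads, and 34.3% against the 3 second-kind shScramble libraries). At 24 h the sum had been 667804, 556140.0 and 515098 with shFLI1, against 415926, 443264, 676523, 626218 and 789573 with shScramble, 98.2% of the mean of all 5 and 83.1% against the 3 second-kind libraries. Of the 57 genes, 46 were called lower and 2 higher at 48 h, where 63.9% of all genes were called (31.7% lower and 32.2% higher). The median log2 fold change was -1.33 over the 57 and 0.0090 over all genes. Among the 44 genes with a mean of at least 1000, 43 were called lower, all except the H2A gene H2AC20, and their levels with shFLI1 were 24.2% to 64.9% of the shScramble mean, with a median of 37.7%. The lower count was 45 to 49 with each library left out and 50 with second-kind libraries alone. The shares over all genes given above are for the fit against all shScramble libraries. In these whole-culture libraries, fewer cells that make histone messages and less of them per cell cannot be told apart. Mitochondrial ribosomal RNA took 22.1% to 22.5% of reads in the shFLI1 libraries and 16.2% to 18% in the shScramble libraries at 48 h, and its part in these values was not tested.

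**Figure D2:**
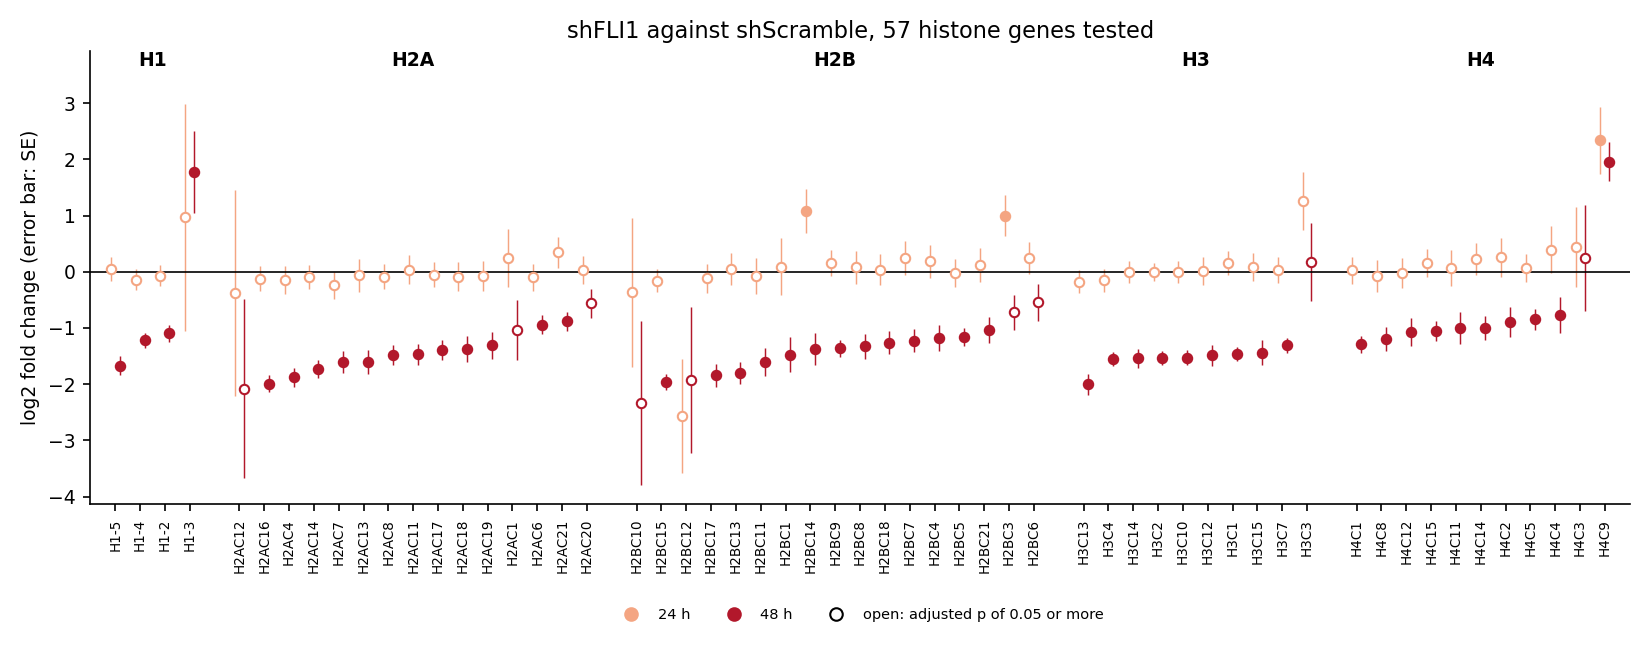
Log2 fold change of shFLI1 over shScramble for each of the 57 tested histone genes at 24 h and 48 h, by class, ordered within a class by the 48 h value; error bars are SE and filled points have a limma adjusted p under 0.05. At 48 h 46 genes are filled below 0 and H4C9 and H1-3 above it, and at 24 h 3 genes are filled, all above 0.

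Linker histones bind the DNA between nucleosomes, and all 3 abundant H1 genes fell. H1-5 had 5657, 6203 and 6688 normalised read counts with shFLI1, against 15199, 14378, 24568, 21865 and 25039 with shScramble (log2 -1.67 ± 0.17 (SE), limma adjusted p = 8.49e-07), the largest fall of the class. H1-4 had 19686, 17990.0 and 19664 with shFLI1, against 36909.6, 37034, 52623, 47892 and 50872 with shScramble (log2 -1.22 ± 0.14 (SE), limma adjusted p = 2.80e-06). In both genes every shFLI1 library lay far below every shScramble library. H1-2 fell to a mean of 17013 ± 1785 with shFLI1, against 36815 ± 7510.5 with shScramble (log2 -1.09, limma adjusted p = 2.31e-05). H1-3, by contrast, was near 0: it was listed at 1.18, 1.15 and 15.6 with shFLI1 and 0, 0, 2.03, 0 and 0 with shScramble, and its call as higher (limma adjusted p = 0.0444) was lost in 12 of 17 alternatives, with its groups overlapping.

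H2A and H2B pair as dimers in the nucleosome, and their genes often sit head to head. Of 15 H2A genes 12 were called lower (median log2 -1.47) and of 17 H2B genes 13 (median -1.36), with none of either class higher. H2AC16, whose promoter is printed above, had 450.0, 482 and 513 with shFLI1, against 1528, 1531, 2334, 2067 and 2281 with shScramble (log2 -1.99 ± 0.15 (SE), limma adjusted p = 5.53e-08). It stands for the deepest falls of the class and was chosen after its values were seen. H2BC17, the most abundant H2B gene per kilobase, had 3873, 3995 and 3961 with shFLI1, against 9881, 10256, 18479.8, 15799.6 and 18808 with shScramble (log2 -1.84 ± 0.21 (SE), limma adjusted p = 2.31e-06). H2AC18 and H2AC19, a near-identical pair on chromosome 1, averaged 7199 ± 518 and 7547 ± 490.2 with shFLI1, against 19464 ± 6309.6 and 19611 ± 6564 with shScramble (log2 -1.37 and -1.31). H2BC5 averaged 11044 ± 611 with shFLI1, against 25200.3 ± 5626 with shScramble (log2 -1.16, limma adjusted p = 1.55e-05). The shallowest values were those of H2AC20 and H2BC6. H2AC20 had 8176, 7827 and 7298 with shFLI1, against 8133, 7484, 15218, 14377 and 14626 with shScramble (log2 -0.56 ± 0.26 (SE), limma adjusted p = 0.0734), so that the shFLI1 libraries lay at or near the 2 first-kind shScramble libraries; with second-kind libraries alone it was among the genes called lower. H2BC6 had log2 -0.55 (limma adjusted p = 0.159). The lowest fitted values of the 2 classes belonged to H2AC12 (log2 -2.08, limma adjusted p = 0.267) and H2BC10 (log2 -2.33, limma adjusted p = 0.176), which varied widely within groups.

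H3 and H4 form the core tetramer. Of 10 H3 genes 9 were called lower (median log2 -1.51) and of 11 H4 genes 9 were called lower and 1 higher (median -0.99). H3C13, an H3 gene on chromosome 1, had 1305, 1516 and 1591 with shFLI1, against 4746, 3960.4, 7775, 6231 and 7689 with shScramble (log2 -2.0 ± 0.19 (SE), limma adjusted p = 4.82e-07), the lowest of its class. H3C12 averaged 6138 ± 142 with shFLI1, against 17706 ± 4568 with shScramble (log2 -1.49), and H3C7 had log2 -1.31. H3C12 overlaps H2AC17 on the same strand, so reads could count to either. H3C3, at 9.45, 13.8 and 49.8 with shFLI1 and 16.1, 12.4, 19.3, 15.9 and 20.7 with shScramble, had log2 0.17 and was the H3 gene not called. H4C1 had 943, 975 and 1227 with shFLI1, against 2192, 2217, 2912, 2531 and 2987 with shScramble (log2 -1.29 ± 0.15 (SE), limma adjusted p = 4.25e-06). The abundant pair H4C12 and H4C11 had log2 -1.07 and -1.0, and summed H4 RNA was 47.8% of shScramble, against 34.4% for H3, 39.1% for H2B, 40.5% for H2A and 41.5% for H1. These use the mean of all 5 shScramble libraries, and the library kind moved the classes unequally. Summed H4 was 73883.5 and 73146.5 in the first kind at 48 h and 123401 to 138738 in the second. Summed H1 was 80323.7 and 81275.5 against 107991 to 121935. The differences between classes were not tested.

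H4C9 went the other way. It had 49.6, 50.6 and 66.5 normalised read counts with shFLI1 at 48 h, against 8.93, 14.4, 15.3, 16.8 and 13.1 with shScramble (log2 1.96 ± 0.34 (SE), limma adjusted p = 1.75e-04), with no overlap of the groups, from 150 reads with shFLI1 and 69 with shScramble. Its call held in all 17 alternatives at each time that could give it a value, with log2 1.5 to 2.05 at 48 h. The log2 fold change at 48 h less that at 24 h was -0.38 (limma adjusted p = 0.78), which was not called. The gene carries the stem-loop printed above, and its promoter holds both CCAAT and GGTCCG.

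Genes of both clusters were lower with shFLI1 at 48 h. On chromosome 1, 10 of 11 genes were called lower (median log2 over the 11, -1.26), and on chromosome 6, 35 of 44 (median over the 44, -1.37). Of the 16 tested genes whose model holds a stem-loop followed by AATAAA, 15 were called lower (median over the 16, -1.23), and of the other 39 with a model, 30 (median over the 39, -1.40). These are counts over unequal groups and were not compared by a test.

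Whether the fold change differed between the times was tested as a difference of differences. Of 57 genes, 39 had a lower log2 fold change at 48 h than at 24 h and none a higher one, where 16.7% of all genes were called (9.44% lower and 7.22% higher). The median difference was -1.36 over the 57 and 0.0054 over all genes. H2BC14 had the largest, log2 -2.46 ± 0.51 (SE), limma adjusted p = 0.0013: it was called higher at 24 h against all shScramble libraries (mean 125 ± 58.1 with shFLI1, against 57.5 ± 25.4 with shScramble) and at 48 h had 17.7, 20.7 and 18.7 with shFLI1, against 40.2, 35.05, 49.9, 55.1 and 88.3 with shScramble (log2 -1.38, limma adjusted p = 7.69e-04). H3C13 (log2 -1.83, limma adjusted p = 8.91e-05), H1-5 (log2 -1.72, limma adjusted p = 1.43e-04) and H2BC17 (log2 -1.72, limma adjusted p = 0.00124) were also lower at 48 h than at 24 h. With second-kind libraries alone, where 13 genes were called lower at 24 h, 47 had a lower log2 fold change at 48 h. The share over all genes in that fit is not given here. The count was 30 to 43 with each library left out. In shScramble alone no gene of the family was called between 48 h and 24 h by limma, with 0 at an unadjusted p under 0.05, where 0% of all genes were called, and edgeR's quasi-likelihood test called none either, with 1 at an unadjusted p under 0.05.

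Genes that make, handle and use these messages were followed as lists chosen with earlier results of these data known. Their counts stand beside shares over all tested genes of 31.7% lower and 32.2% higher with shFLI1 at 48 h, and 22.5% lower and 24.2% higher at 24 h. In the S phase and DNA synthesis list, 31 of 36 genes fell with shFLI1 at 48 h and none rose (median log2 -0.75), and at 24 h 8 fell, near the share over all genes, and 2 rose (median -0.10). ORC1, a subunit of the origin recognition complex, averaged 755 ± 23.3 with shFLI1, against 3264 ± 443 with shScramble (log2 -2.10 ± 0.10 (SE), limma adjusted p = 7.87e-10). GINS1, part of the replicative helicase, had log2 -0.89 at 24 h and -1.95 at 48 h, and the clamp loader subunit RFC3 -0.89 and -1.84 (limma adjusted p at 24 h, 2.28e-05 and 1.32e-05). Of 14 histone chaperone and assembly genes, 10 fell and none rose at 48 h (median -0.70). The importin IPO4, which carries H3 and H4 into the nucleus, averaged 476 ± 33.8 with shFLI1, against 2305 ± 347 with shScramble (log2 -2.26 ± 0.13 (SE), limma adjusted p = 2.28e-09), and TONSL and CHAF1A, a subunit of the CAF-1 assembly factor, had log2 -1.52 and -1.04.

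Of 16 histone mRNA processing and decay genes, 13 fell and 2 rose with shFLI1 at 48 h (median -0.64). SLBP averaged 3100.2 ± 377 normalised read counts with shFLI1, against 4853 ± 281 with shScramble (log2 -0.65 ± 0.09 (SE), limma adjusted p = 2.20e-05). LSM10, a protein of the U7 particle, averaged 188 ± 25.4 with shFLI1, against 519.7 ± 85.1 with shScramble (log2 -1.45 ± 0.16 (SE), limma adjusted p = 1.56e-06), and was already at log2 -1.01 at 24 h. RNU7-1, the U7 small nuclear RNA itself, averaged 31.9 ± 4.83 with shFLI1, against 67.05 ± 20.7 with shScramble (log2 -1.0, limma adjusted p = 0.019). ERI1, the exonuclease that trims and degrades histone messages, had log2 -0.94 and the cleavage factor CSTF2 -1.0. TUT7, which adds uridines to histone messages, and MIF4GD, an SLBP partner, were the 2 that rose. Of 13 genes of histone gene transcription, 4 fell and 1 rose (median -0.19), a share of falls near that over all genes. NPAT itself averaged 3406 ± 282 with shFLI1 and 3856 ± 478 with shScramble (log2 -0.17, limma adjusted p = 0.142), while CCNA2, the S phase cyclin A (log2 -1.41, limma adjusted p = 1.36e-07), E2F1 (log2 -1.08, limma adjusted p = 1.92e-06) and CDK2 (log2 -0.44, limma adjusted p = 1.72e-04) fell.

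Replication-independent histone genes, which have introns and poly(A) tails and are made outside S phase as well, moved in both directions. Of 11 tested, 5 fell and 2 rose with shFLI1 at 48 h (median log2 -0.30), and at 24 h 1 fell and 5 rose (median 0.27), against shares over all genes of 31.7% lower and 32.2% higher at 48 h and 22.5% lower and 24.2% higher at 24 h. H2AZ1, the gene of the variant H2A.Z, averaged 6741 ± 388 with shFLI1, against 15552 ± 1999 with shScramble (log2 -1.20 ± 0.10 (SE), limma adjusted p = 7.04e-08), and MACROH2A2 had log2 -0.74 at 24 h and -0.93 at 48 h.

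**Figure D3:**
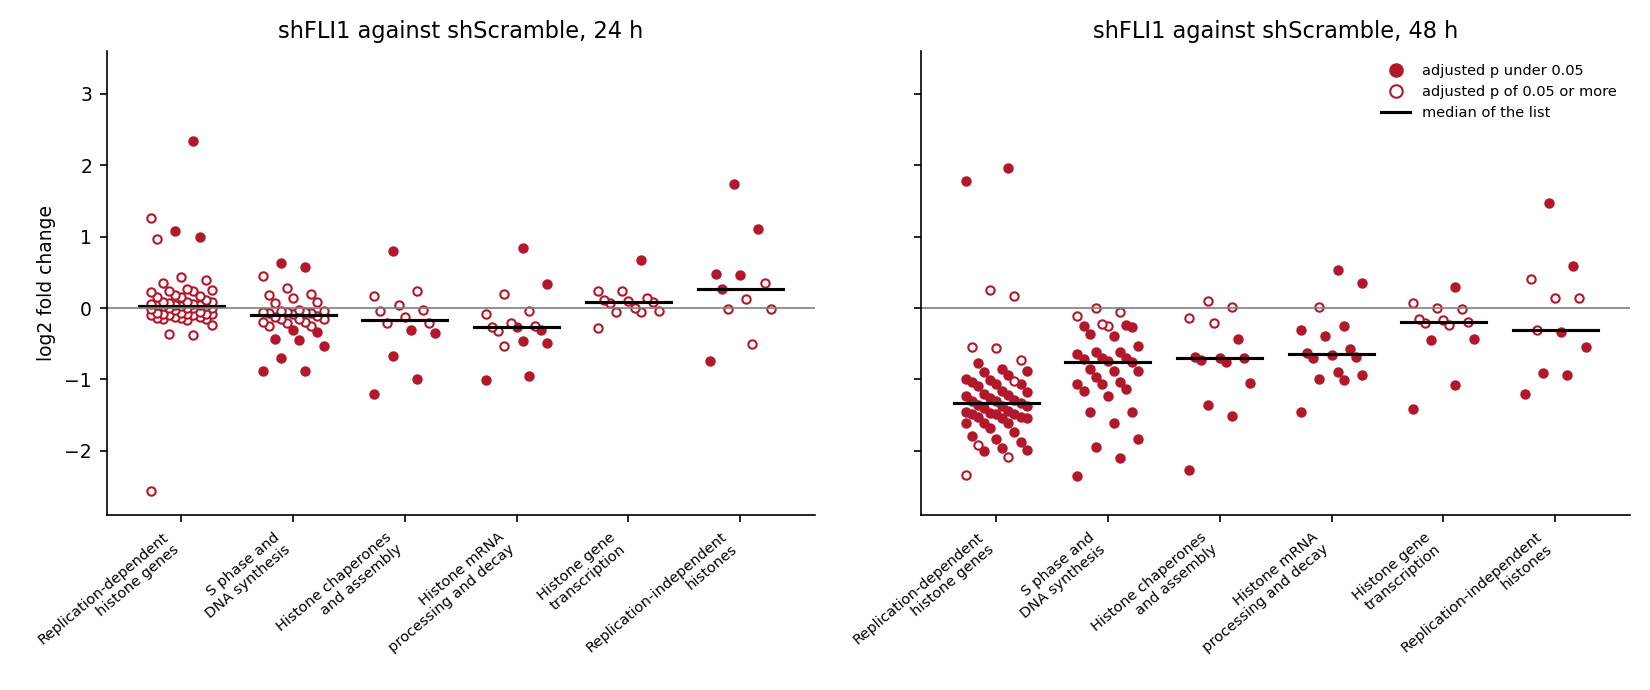
Log2 fold change of shFLI1 over shScramble for the histone genes and 5 gene lists at 24 h and 48 h, 1 point a gene; filled points have a limma adjusted p under 0.05 and lines are medians. The median of the histone genes is 0.03 at 24 h and -1.33 at 48 h, and that of the S phase list -0.10 and -0.75.

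The second question was what loss of CHD4 did. In the fit without a block or a term for the library kind, the genes called higher were all among the 13 with means of 10 to 1000. This did not hold in every fit. With the replicate number as a block and no shFLI1 libraries, shCHD4#2 gave 23 of 57 higher at 24 h and shCHD4#1 gave 4. Of all 21025 genes, 2216 and 2109 were higher there. These comparisons share their shScramble libraries with those of shFLI1 and with each other. H2AC1 and H2BC1, known from testis as germ-cell histone genes, are neighbours transcribed away from each other on chromosome 6. H2BC1 (chr6:25726777-25727292, plus strand) had 34.7, 102 and 105 normalised read counts with shCHD4#1 and 37.02, 118 and 152 with shCHD4#2 at 24 h, against 2.78, 5.67, 7.09, 11.6 and 7.22 with shScramble. At 48 h it had 68.9, 144 and 89.9 with shCHD4#1 and 105, 84.02 and 112 with shCHD4#2, against 8.93, 7.22, 11.2, 10.3 and 4.36 with shScramble. Every CHD4 hairpin library lay above every shScramble library at both times (log2 3.32 and 3.59 at 24 h, 3.43 and 3.47 at 48 h). Because this gene and H2AC1 passed the filter on low values only through the CHD4 hairpin groups, in which they had to differ, their values there are a description and no p is given. Its neighbour H2AC1 (chr6:25726132-25726527, minus strand) had 19.9, 40.9 and 22.7 with shCHD4#1 and 42.8, 39.8 and 48.4 with shCHD4#2 at 48 h, against 3.57, 0, 2.03, 3.73 and 5.45 with shScramble (log2 3.04 and 3.73). At 24 h it averaged 21.4 ± 6.53 with shCHD4#1 and 39.2 ± 28.8 with shCHD4#2, against 2.197 ± 0.874 with shScramble (log2 2.81 and 3.39). These are few reads: H2AC1 rests on 89 and 135 reads with the 2 CHD4 hairpins and 15 with shScramble at 48 h. With shFLI1 at 48 h H2BC1 was lower, at 2.36, 2.30 and 2.08, against 8.93, 7.22, 11.2, 10.3 and 4.36 with shScramble (log2 -1.48, limma adjusted p = 7.38e-04, from 6 reads with shFLI1 and 43 with shScramble).

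H2BC14 (chr6:27815044-27815424, plus strand), an H2B gene of chromosome 6, had 132, 190.1 and 209 with shCHD4#1 and 309.9, 477 and 844 with shCHD4#2 at 24 h, against 59.3, 32.4, 54.7, 42.2 and 98.7 with shScramble. At 48 h it had 281, 224 and 253 with shCHD4#1 and 1083, 481 and 959 with shCHD4#2, against 40.2, 35.05, 49.9, 55.1 and 88.3 with shScramble (log2 2.28 and 3.93, limma adjusted p = 7.53e-05 and 5.35e-07). The CHD4 hairpin libraries lay above all shScramble libraries at both times. At 24 h the log2 fold change was 1.68 with shCHD4#1 and 3.20 with shCHD4#2 (limma adjusted p = 0.0123 and 1.62e-04), and the call for shCHD4#1 was lost without its replicate 2 or 3 and within the second library kind. Its head-to-head neighbour H2AC14, 303 bases away, had 1014 ± 93.3 with shCHD4#1 and 1402 ± 137 with shCHD4#2 at 48 h, against 1079.5 ± 212 with shScramble (log2 -0.07 and 0.39, limma adjusted p = 0.767 and 0.0578), and is named because it is that neighbour.

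H2BC3 (chr6:26043277-26043657, minus strand), an H2B gene of the first chromosome 6 cluster, was higher with shCHD4#2. It had 250.3, 312 and 574 with shCHD4#2, against 66.7, 48.6, 121, 89.6 and 165 with shScramble at 24 h, and 765, 392 and 999 with shCHD4#2, against 84.8, 52.6, 117, 96.1 and 116 with shScramble at 48 h (log2 1.97 and 2.89, limma adjusted p = 0.00353 and 9.12e-06). With shCHD4#1 it had 80.6, 90.7 and 133 at 24 h and 172, 123 and 151 at 48 h (log2 0.14 and 0.71, limma adjusted p = 0.854 and 0.0982). H4C4 (chr6:26188765-26189076, minus strand), an H4 gene, had 164, 124 and 209 with shCHD4#1 and 207, 133 and 254 with shCHD4#2 at 48 h, against 53.6, 41.2, 52.9, 45.7 and 63.2 with shScramble (log2 1.65 and 1.89, limma adjusted p = 0.00171 and 4.12e-04), with no overlap. At 24 h its log2 fold change was 1.53 with shCHD4#1 (limma adjusted p = 0.0295, lost in 6 of 21 alternatives) and 1.95 with shCHD4#2 (limma adjusted p = 0.00785). H4C3, another H4 gene, was called at 48 h with both, at 31.6, 52.6 and 33.6 with shCHD4#1 and 71.3, 34.3 and 58.96 with shCHD4#2, against 12.5, 0, 1.02, 1.87 and 23.99 with shScramble (limma adjusted p = 0.0229 and 0.00833). Its shScramble libraries were uneven, 1 of them at 0, and the calls were lost in 6 and 2 of 20 alternatives, edgeR's among them for shCHD4#1.

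**Figure D4:**
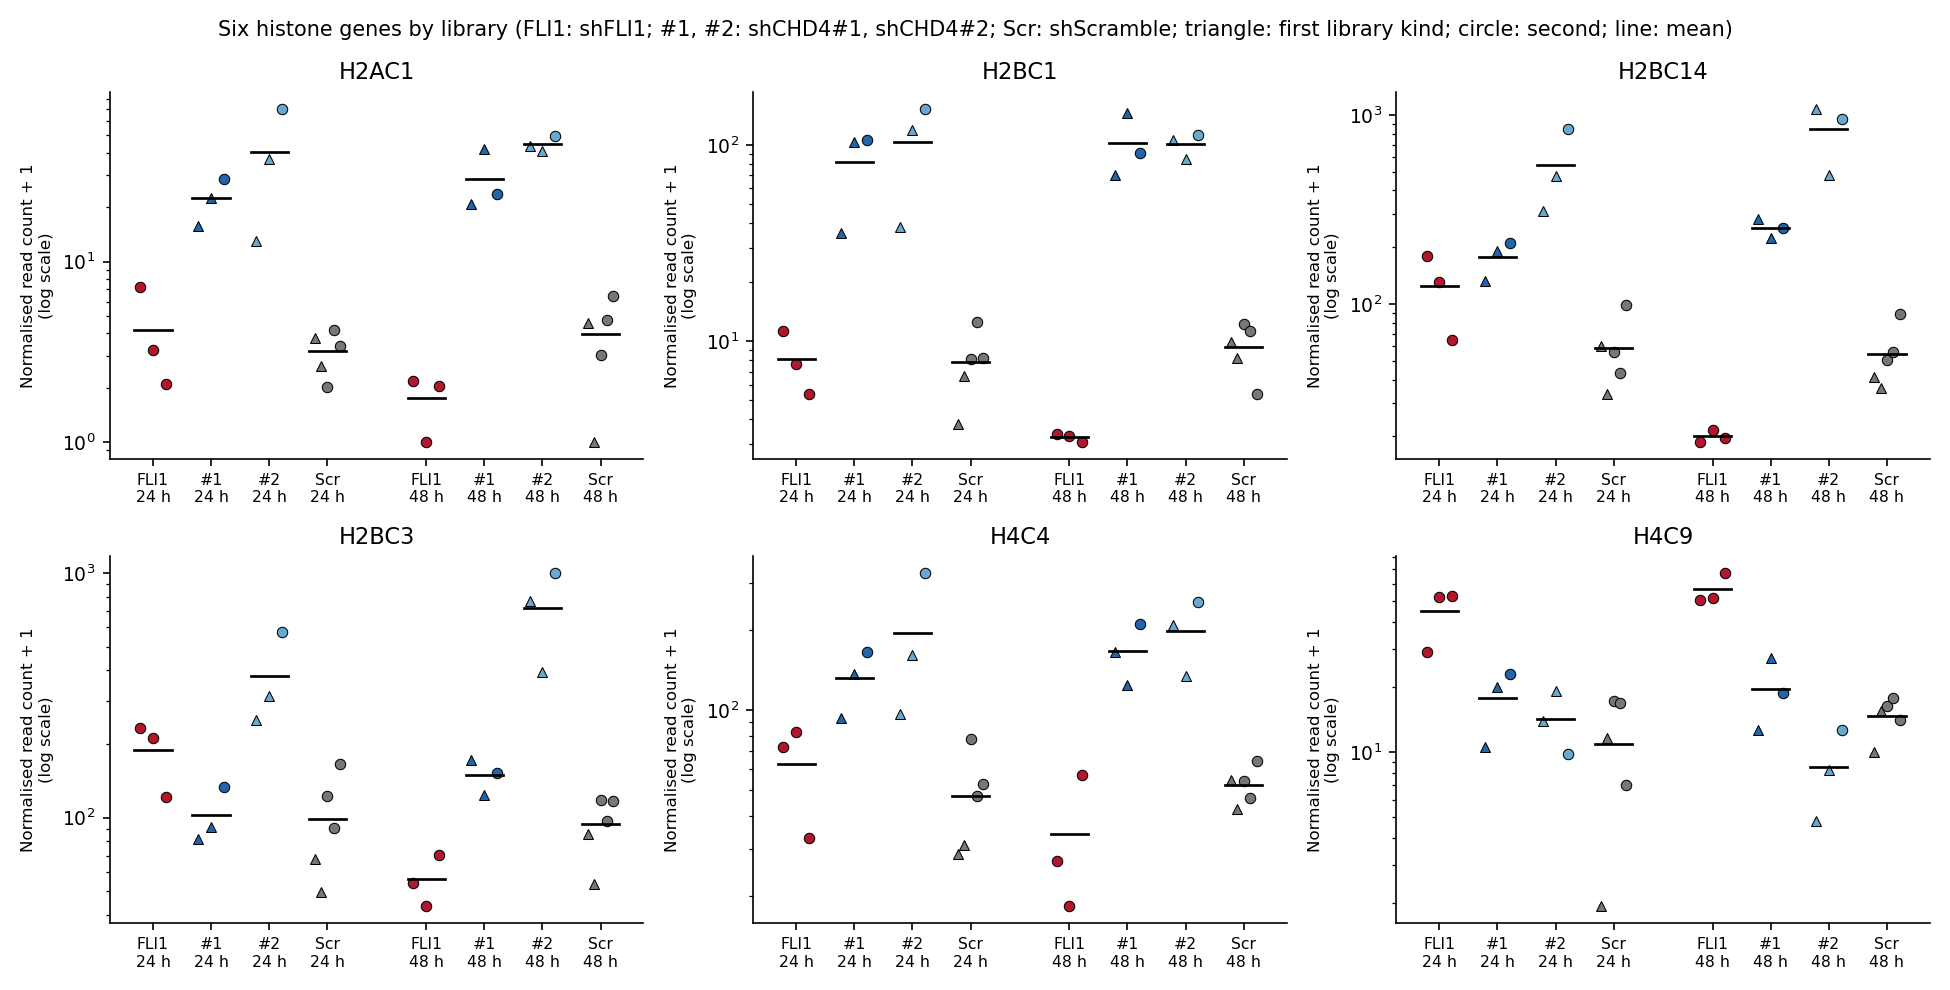
Normalised read counts plus 1, on a log scale, of 6 histone genes in each library, by hairpin and time; triangles are the first library kind, circles the second, and lines the group means. H2AC1, H2BC1, H2BC14 and H4C4 lie above the shScramble libraries with both CHD4 hairpins at 48 h, H2BC3 with shCHD4#2, and H4C9 with shFLI1.

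In counts over the 57 genes, 4 were higher and none lower with shCHD4#1 at 24 h, where 11.3% of all genes were called (5.21% higher and 6.14% lower), and 5 were higher and none lower with shCHD4#2, where 11.1% were called (4.05% higher and 7.01% lower). Those higher were H2AC1, H2BC1, H2BC14 and H4C4 with each hairpin, and H2BC3 with shCHD4#2, and among the 55 genes that passed the filter on shScramble alone 2 were higher with shCHD4#1 and 3 with shCHD4#2. The count for shCHD4#1 was 2 without its replicate 2 or 3. Same-numbered CHD4 hairpin and shScramble libraries deviated together from their group means and also shared the library kind. With the number as a block and the shFLI1 libraries left out, shCHD4#1 gave 4 higher and 2 lower at 24 h. There shCHD4#2 gave 23 higher and 4 lower. Over all 21025 genes that fit called 2109 higher and 2756 lower with shCHD4#1, and 2216 higher and 2950 lower with shCHD4#2. With the library kind as a term, shCHD4#2 gave 13 higher and 3 lower, and the share over all genes in that fit is not given here. The median log2 fold change of the 57 was -0.16 with shCHD4#1 and 0.00035 with shCHD4#2 (all genes, -0.02 and 0.00037). Among the 44 genes with a mean of at least 1000, none was called with either CHD4 hairpin at 24 h without the block.

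At 48 h some abundant genes were lower with the CHD4 hairpins, in a share near that over all genes. With shCHD4#1, 12 of 57 genes were lower and 5 higher (28.4% of all genes called, 15.5% lower and 12.9% higher), and with shCHD4#2, 11 were lower and 6 higher (37.9% of all genes called, 20.3% lower and 17.5% higher). The 12 and 11 were all among the 44 genes with a mean of at least 1000, and the higher ones were among the 13 below it. Levels of the 44 were 56.0% to 93.9% of the shScramble mean with shCHD4#1 (median 72.1%) and 41.2% to 152% with shCHD4#2 (median 89.8%). Among the 55 genes that passed on shScramble alone, 3 were higher with shCHD4#1 and 4 with shCHD4#2. H2AC21, an H2A gene on chromosome 1, had 2596, 2268 and 2748 with shCHD4#1 and 1608, 1499.8 and 2027 with shCHD4#2, against 3150.0, 3092, 4774, 4330.4 and 5265 with shScramble (log2 -0.67 and -1.25, limma adjusted p = 0.00753 and 5.58e-05). H4C1 had 1771, 1320.1 and 1607 with shCHD4#1 and 1140.0, 826 and 1212 with shCHD4#2, against 2192, 2217, 2912, 2531 and 2987 with shScramble (log2 -0.71 and -1.28, limma adjusted p = 0.0034 and 2.42e-05). In both genes all CHD4 hairpin libraries lay below all shScramble libraries. H3C13 averaged 3509 ± 453 with shCHD4#1 and 3204 ± 368 with shCHD4#2, against 6080.3 ± 1714 with shScramble (log2 -0.75 and -0.88), and H2BC18 averaged 11344 ± 2097 with shCHD4#1 and 11699.6 ± 1988 with shCHD4#2, against 20245 ± 5611 with shScramble (log2 -0.81 and -0.76). H2BC9 (log2 -0.57 and -0.58), H3C7 (-0.52 and -0.50) and H2BC5 (-0.51 and -0.61) were also called lower with both. H3C4, H2AC4 and H4C15 were among those called with shCHD4#1 and not with shCHD4#2 (log2 -0.46, -0.52 and -0.58), and H3C1, H2BC7 and H1-5 with shCHD4#2 and not with shCHD4#1 (-0.48, -0.71 and -0.49). Of these 6, H3C4 was called between the hairpins (log2 -0.45, limma adjusted p = 0.0212). With the replicate block the calls of H3C4, H2AC4, H4C15 and H2BC5 with shCHD4#1 and of H1-5 with shCHD4#2 were lost. H3C4 overlaps another annotated transcript, AL031777.2, along its whole length on the same strand.

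**Figure D5:**
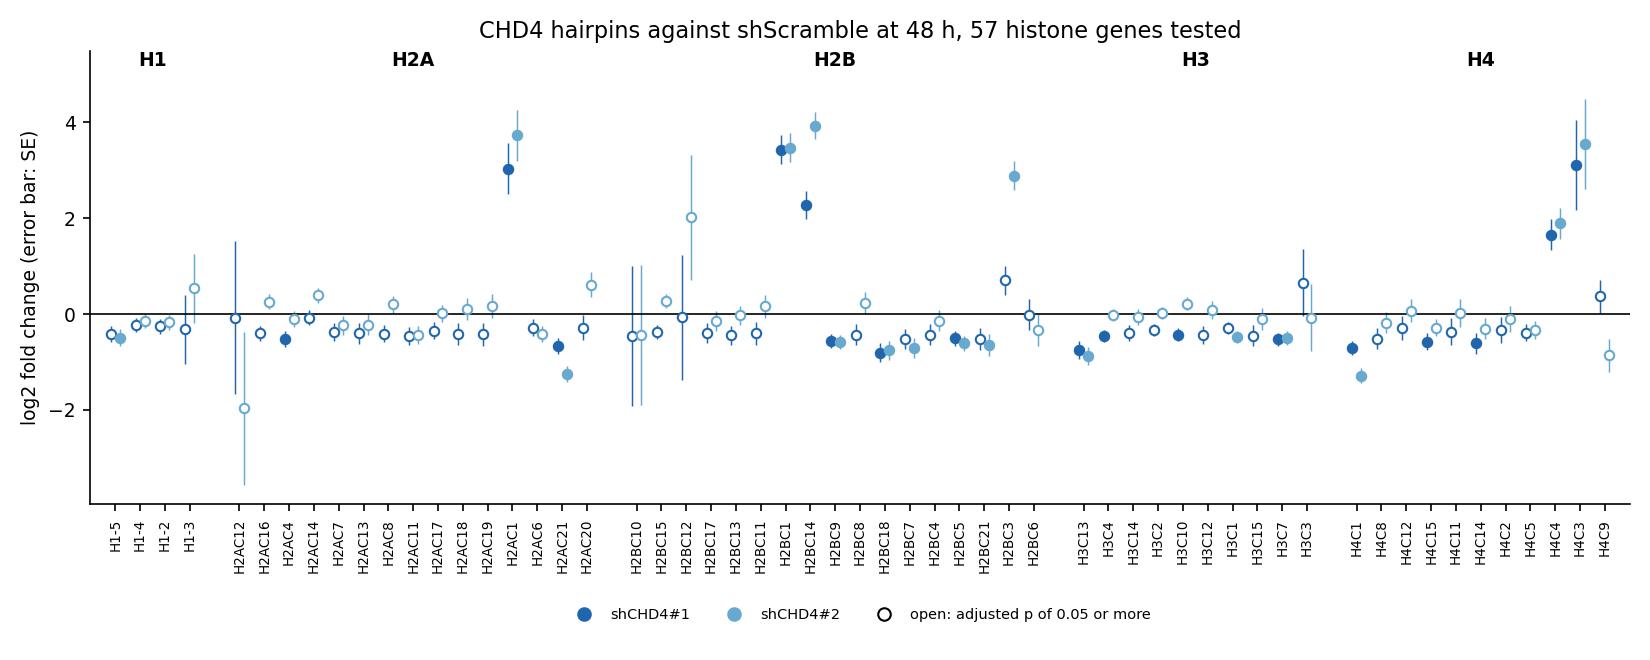
Log2 fold change of shCHD4#1 and shCHD4#2 over shScramble at 48 h for each of the 57 tested histone genes, by class and in the order of the shFLI1 plot; error bars are SE and filled points have a limma adjusted p under 0.05. H2AC1, H2BC1, H2BC14, H4C4 and H4C3 are filled above 0 with both hairpins, H2BC3 with shCHD4#2, and the filled points below 0 lie between -0.43 and -1.28.

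The lower counts of the CHD4 hairpins at 48 h depended on the library kind. Within the first kind, where 2 libraries of each group remain, shCHD4#1 gave 4 higher and 0 lower and shCHD4#2 gave 7 higher and 3 lower (H2AC21, H2BC7 and H4C1). Over all 21025 genes, 604 were higher and 611 lower with shCHD4#1, and 1369 higher and 1605 lower with shCHD4#2. Within the second kind each CHD4 hairpin has 1 library against 3 of shScramble and is assumed to vary like the other groups. There the median log2 fold change of the 57 genes was -0.60 with shCHD4#1 and -0.097 with shCHD4#2 (all genes, -0.020 and 0.0077). The summed level with shCHD4#1 was 96.8% of shScramble within the first kind and 66.8% within the second, and with shCHD4#2 it was 111% and 86.7%. H2BC14 had log2 2.71 and 2.0 within the 2 kinds with shCHD4#1, and 4.23 and 3.92 with shCHD4#2. With the replicate block, shCHD4#1 gave 6 lower (7 with the shFLI1 libraries left out, where 3280 of all 21025 genes were lower). For shCHD4#1 the lower count was 28 without shScramble replicate 1, 25 without replicate 2, 7 without replicate 3, 4 or 5, and 7 and 3 without shCHD4#1 replicate 1 and 2. For shCHD4#2 it was 5 without its replicate 2. The change with time itself was tested on the mean of both hairpins. By limma none of 57 genes was called between 48 h and 24 h (1 at an unadjusted p under 0.05, 0% of all genes called; 4 with the replicate block, 14 with the block and no shFLI1 libraries and 15 with the library kind as a term), and edgeR's quasi-likelihood test called none (1 at an unadjusted p under 0.05).

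The 2 CHD4 hairpins differed from each other in some of these genes. At 24 h, 2 of 57 were lower with shCHD4#1 than with shCHD4#2 and none higher, where 9.62% of all genes were called (4% lower and 5.62% higher): H2BC3 (log2 -1.83 ± 0.42 (SE), limma adjusted p = 0.0127) and H2BC14 (log2 -1.52 ± 0.44 (SE), limma adjusted p = 0.041). Both calls were lost in fits without shCHD4#1 replicate 2 or without shCHD4#2 replicate 3. With the block and no shFLI1 libraries 12 were lower, where 2802 of all 21025 genes were lower. At 48 h, 10 were lower with shCHD4#1 than with shCHD4#2 and 3 higher, where 37.9% of all genes were called (18.6% lower and 19.2% higher). H2BC3 (log2 -2.18, limma adjusted p = 2.73e-04) and H2BC14 (log2 -1.65, limma adjusted p = 0.00131) kept that call in all 18 alternatives. H2AC20, the H2A gene least lowered among the abundant ones with shFLI1, had 9133, 8276 and 11012 with shCHD4#1 and 11487, 18785 and 24468 with shCHD4#2 (log2 -0.89, limma adjusted p = 0.0263) with no overlap, and this call was lost in 5 of 18 alternatives, without shCHD4#1 replicate 1 or 2 or shCHD4#2 replicate 2 or 3 among them. H2AC21 (log2 0.58, limma adjusted p = 0.0236), H4C1 (log2 0.57, limma adjusted p = 0.0171) and H4C9 (log2 1.23, limma adjusted p = 0.0211) were the 3 higher with shCHD4#1, and these calls were lost in 4 of 18, 4 of 18 and 6 of 17 alternatives. The lower count was 17 with the replicate block, with the shFLI1 libraries or without. Of all 21025 genes, 4779 were lower with the block and no shFLI1 libraries. Within the first library kind 2 were lower, where 1402 of all 21025 genes were. Within the second, where each hairpin has 1 library, the median log2 fold change was -0.42 over the 57 and -0.0069 over all genes. The lower count was 5 to 6 without any 1 of shCHD4#1 replicates 1, 2 and 3 or shCHD4#2 replicates 2 and 3. The higher count was 1 without shCHD4#1 replicate 1 or 3 or shCHD4#2 replicate 1 or 2. For fits with a library left out, shares over all genes are not given. For the genes raised with both hairpins the difference was not called: H2BC1 had log2 -0.04 ± 0.35 (SE) and H4C4 -0.24 ± 0.36 at 48 h, which does not show that the hairpins act alike. CHD4 RNA itself was 3189 ± 267 with shCHD4#1 and 2749.9 ± 44.1 with shCHD4#2. FLI1 was called lower at 48 h with shCHD4#2 and not with shCHD4#1, and was not called between the hairpins.

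With the CHD4 hairpins at 48 h the counts of the lists around the histone genes stand beside shares over all genes of 15.5% lower and 12.9% higher with shCHD4#1, and 20.3% lower and 17.5% higher with shCHD4#2. In the S phase and DNA synthesis list 17 of 36 genes fell with shCHD4#1 and 19 with shCHD4#2, and none rose (medians -0.26 and -0.33). In the histone chaperone and assembly list 6 and 11 of 14 fell and none rose (medians -0.23 and -0.56). Of the 16 processing and decay genes, 7 fell and none rose with shCHD4#1, and 6 fell and 1 rose with shCHD4#2 (medians -0.20 and -0.20). The 1 that rose was RNU7-1, at 172 ± 78.9 with shCHD4#2, against 67.05 ± 20.7 with shScramble (log2 1.27, limma adjusted p = 0.00972), and 57.8 ± 16.95 with shCHD4#1. SLBP averaged 3865 ± 384 with shCHD4#1 and 3951 ± 125 with shCHD4#2, against 4853 ± 281 with shScramble (limma adjusted p = 0.0147 and 0.0203). Of 13 transcription genes 5 and 9 fell and none rose (medians -0.28 and -0.40). NPAT had log2 0.09 with shCHD4#1 and -0.52 with shCHD4#2 (limma adjusted p = 0.557 and 0.00111). Of the 11 replication-independent histone genes, 5 fell and none rose with shCHD4#1, and 6 fell and 1 rose with shCHD4#2.

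Some genes varied too much within groups to be compared. H2AC12 ranged from 0.893 to 446 normalised read counts between libraries, with 0.893, 216, 412, 360.2 and 266 in the shScramble libraries at 48 h, and H2BC12 had 104, 270.1, 199, 7.47 and 8.72 there. H2BC10 had 104, 25.8, 56.98, 13.1 and 0 in the same libraries. The authors' deposited table of comparisons gave 45 family genes lower and none higher with shFLI1 at 48 h. In the authors' deposited tables for the CHD4 hairpins, 3 and 5 genes were higher and none lower at 24 h, and at 48 h shCHD4#1 had 4 higher and 0 lower and shCHD4#2 6 higher and 2 lower. The test behind the authors' deposited adjusted p-values is not given in these sources, and it differs from limma's here: the authors' deposited table lists H2BC18 with shCHD4#2 at 48 h at log2 -0.53 with SE 0.14 and adjusted p = 1, so the counts cannot be compared with those above.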

How the data were processed

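Total RNA of SK-N-MC cells was read as stranded paired ends, per the labels' protocols. Per the submitters' processing notes, the build was GRCh38 and the tools were featureCounts 1.6.0, HISAT2 2.1.0, DESeq2 1.34.0, FastQC 0.11.7 and SAMtools 1.7. For their settings, strand and shared reads included, the sources used here give nothing. The deposited values are a signal that the authors call normalised counts; that each is the gene's reads divided by a size factor of its library was read from the values. The 2 deposited tables hold the same 28 libraries and 35488 genes. Whole reads were recovered from the deposited signal for 100% of values (tolerance 0.02 reads), 46102707 to 64775441 a library. The authors' deposited tables of comparisons hold log2 fold changes and adjusted p-values; they were used for counts of calls only, and the table named for shFLI1 at 24 h was not used because its values match shScramble at 48 h against 24 h.

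The 21025 genes whose mean over the 28 libraries reached 10 were tested with limma 3.58.1 (R 4.3.3) with trend on log2 of the value plus 1, a scale that understates the change of low genes. The 4 groups of a time shared 1 fit, and changes between times came from a fit of all 8 groups; two-sided p-values were adjusted by Benjamini and Hochberg over all tested genes and called under 0.05. edgeR 4.0.16 was run on the recovered reads, and both were tested on simulated data. Tables and plots used Python 3.11.15, pandas 2.3.3 and matplotlib 3.10.9. The histone genes and the gene lists were chosen with earlier results of these data known. Named histone genes were, for each class, the 2 with the highest level per kilobase and the lowest and highest change with shFLI1 at 48 h, those called against the majority, those called with both CHD4 hairpins, and up to 3 called with 1 hairpin; other named genes were chosen after their values were seen. Of the other lists, SLBP, NPAT, RNU7-1 and up to 3 genes a list by adjusted p were named; 1 gene of these lists is not reported here.

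The genotype label of the 48 h shScramble libraries names CHD4 knockdown, against their titles and treatment; the titles were used. Same-numbered shCHD4#1, shCHD4#2 and shScramble libraries deviated together from their group means (correlations of 0.119 to 0.708, each over 0.1). They also share the library kind, so pairing by number and the kind cannot be told apart by these correlations. Between shFLI1 and shScramble these correlations were -0.15 to 0.045. Alternatives were 2 other scalings, another pseudocount (5), no filter or a mean of 100, edgeR, a replicate block, the library kind as a term, 2-group fits, second-kind libraries alone for shFLI1 and each library left out. Chosen after seeing the data were fits of the CHD4 comparisons without shFLI1 libraries, with and without the block, and within each library kind.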

Additional observations from a re-analysis of the deposited data

Results flagged for a closer look

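In 4 of 68 groups tested 1 library stood apart from the other 4 of its group, and chance gives about 1 in 20 groups. H1-3 had 117 normalised read counts in shScramble replicate 2 at 24 h and 0 in the other 4, and 2.03 in shScramble replicate 3 at 48 h and 0 in the other 4. H2BC6 had 297 in shScramble replicate 1 at 24 h, where the next lowest library had 459. H4C3 had 42.1 in shScramble replicate 5 at 24 h, where the next highest had 9.11.

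The log2 fold change of shFLI1 over shScramble differed between 48 h and 24 h, by the limma test of the difference, in 39 histone genes, all lower at 48 h. The difference (48 h minus 24 h) was -1.02 for H1-2, -1.08 for H1-4 and -1.72 for H1-5 among linker histones. Among H2A genes it was -1.28 for H2AC18, -1.23 for H2AC19, -1.23 for H2AC21 and -1.73 for H2AC4. Among H2B genes it was -2.46 for H2BC14, -1.72 for H2BC17, -1.30 for H2BC18, -1.72 for H2BC3, -1.14 for H2BC5, -1.46 for H2BC7 and -1.53 for H2BC9. Among H3 genes it was -1.61 for H3C1, -1.49 for H3C12, -1.83 for H3C13, -1.39 for H3C4 and -1.34 for H3C7, and among H4 genes -1.32 for H4C1 and -1.21 for H4C15.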

How the results depend on the processing

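No named result changed direction, and 61 of 99 named calls held in every alternative that gave them a value. The 61 include the calls of H2AC1 and H2BC1 with the CHD4 hairpins. These genes passed the filter only through those groups, so their calls do not count as support. For shFLI1 at 48 h the lower count of 46 was 45 to 49 with each library left out. Its higher count of 2 was 1 with median centring, quantile normalization, pseudocount 5, the replicate block, the library kind as a term, 2 groups in the fit or second-kind libraries alone, 5 with no filter (then of all 64 genes), 0 with a mean of 100 and 1 to 2 with each library left out. At 24 h the higher count of 3 was 1 with quantile normalization or no filter and 1 to 4 with each library left out; the lower count of 0 was 1 with median centring, quantile normalization, edgeR or the block, 19 with the library kind, 13 with second-kind libraries and 0 to 1 with each library left out. The difference between times had 39 lower (30 to 43 with each library left out) and 0 higher (1 with no filter). The replicate numbers of shFLI1 and shScramble share only a number: the block gave 4 higher and 1 lower at 24 h, 1 higher and 49 lower at 48 h, and 46 lower in the difference.

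For shCHD4#1 at 24 h the higher count of 4 was 2 with a mean of 100 and 2 to 4 with each library left out, and the lower count of 0 was 2 with the replicate block and no shFLI1 libraries. For shCHD4#2 at 24 h the higher count of 5 was 3 with a mean of 100, 13 with the library kind, 23 with the block and no shFLI1 libraries, 8 within the first kind and 5 to 7 with each library left out; the lower count of 0 was 3, 4 and 1 with the library kind, that block and the first kind, and 0 to 1 with each library left out. For shCHD4#1 at 48 h the higher count of 5 was 2 with a mean of 100 and 4 to 5 with each library left out; the lower count of 12 was 6 with the block, 7 with the block and no shFLI1 libraries, 0 within the first kind, 43 within the second and 3 to 28 with each library left out. For shCHD4#2 at 48 h the higher count of 6 was 3 with a mean of 100, 10 with the library kind and 6 to 8 with each library left out; the lower count of 11 was 3 within the first kind and 5 to 15 with each library left out.

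For shCHD4#1 against shCHD4#2 at 24 h the lower count of 2 was 1 with no filter, 6 with the library kind, 12 with the block and no shFLI1 libraries, 0 within the second kind and 0 to 2 with each library left out. At 48 h the higher count of 3 was 1 within either kind and 1 to 3 with each library left out; the lower count of 10 was 17 with the block, with or without shFLI1 libraries, 20 with the library kind, 2 and 25 within the first and second kinds, and 5 to 15 with each library left out. The mean change of the CHD4 hairpins with time and the change in shScramble gave 0 calls in every alternative. A mean of 100 leaves fewer genes tested, and the other causes were not tested. Few reads, near-identical copies and same-strand overlaps limit single values. Counts in this section have no share over all genes beside them, so none is read as particular to the family.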
